A study of Mus musculus with 7 samples.

Results

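The 8 genes described here encode RNA-binding and chromatin proteins that are abundant in early embryos and many tumours and scarce in most adult tissues. They are the LIN28 pair Lin28a and Lin28b, the ubiquitin ligase gene Trim71, the HMGA pair Hmga1 and Hmga2, and the IGF2BP trio Igf2bp1, Igf2bp2 and Igf2bp3. They were chosen by name, and all 8 were matched by symbol to 1 row each among the 29267 genes in the tables. The rule names the genes and sets no threshold on a measured value, although earlier results of these data were known when it was written. On GRCm38 they lie at chr4:134003330-134018841 (Lin28a), chr10:45376620-45486395 (Lin28b), chr9:114507133-114564369 (Trim71), chr17:27556497-27563674 (Hmga1), chr10:120361275-120476469 (Hmga2), chr11:95957163-96005940 (Igf2bp1), chr16:22059009-22163299 (Igf2bp2) and chr6:49085223-49214957 (Igf2bp3), all on the minus strand except Hmga1.

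The data are 7 RNA-Seq libraries from mouse cells, 1 library per group, made to compare reprogramming in different media. These were a conventional mouse ES cell medium (mES) and 5C, a defined medium holding bFGF, vitamin C and LIF. Vitamin C was in both media, per the paper. The starting cells were OG2 fibroblasts from mid-gestation mouse embryos, which carry a GFP transgene under an Oct4 promoter fragment (GOF18ΔPE), and every OG2 group had received Oct4, Sox2, Klf4 and c-Myc by retrovirus. Cells sorted on day 15 at passage 0 gave an Oct4GFP+ and an Oct4GFP- library for either medium, named here mES-Oct4GFP+, mES-Oct4GFP-, 5C-Oct4GFP+ and, last, 5C-Oct4GFP-. Cells from 5C-Oct4GFP+ colonies kept in naive or primed medium for 20 passages gave 5C-Oct4GFP+ (naive) and 5C-Oct4GFP+ (primed), and R1 mouse ES cells converted to the primed state, labelled with 20 passages, gave R1 ESCs-primed. The GFP gate reads a transgene rather than the state of the cell, the Oct4GFP- gate takes every cell without that signal, and the number of colonies behind a library was not given in the sources used here. R1 ESCs in naive medium and starting fibroblasts were not analysed here. With 1 library per group there is no replicate error, and no test between groups was run.

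LIN28 proteins bind the precursors of the let-7 microRNAs and block their maturation, with a terminal uridyltransferase marking the bound precursor for decay. Mature let-7 in turn lowers messages that hold its seed match in their 3′ UTR, and the LIN28, TRIM71, HMGA2 and IGF2BP messages are textbook examples of such targets, so that LIN28 and let-7 repress each other. HMGA proteins are small architectural proteins whose AT hooks bind the minor groove of AT-rich DNA. IGF2BP proteins bind messages such as those of Igf2, Actb and Myc and affect their stability, transport and translation, and TRIM71 represses messages of cell cycle and differentiation regulators in pluripotent cells.

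The mature let-7 family is shown first because its seed is the letter pattern that these 8 genes share. In the RefSeq annotation of GRCm38.p6, all 9 mature 5p names of the family held the same seed, bases 2 to 8, given here in capitals. Each sequence has 22 bases. Let-7 RNA itself was not measured in these libraries.
let-7a-5p (Mirlet7a-1, chr13:48538239-48538260, minus strand): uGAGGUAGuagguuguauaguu
let-7b-5p (Mirlet7b, chr15:85707325-85707346, plus strand): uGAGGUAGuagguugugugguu
let-7d-5p (Mirlet7d, chr13:48536078-48536099, minus strand): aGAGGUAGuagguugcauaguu
let-7g-5p (Mirlet7g, chr9:106178846-106178867, plus strand): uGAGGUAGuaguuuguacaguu
let-7i-5p (Mirlet7i, chr10:122985698-122985719, minus strand): uGAGGUAGuaguuugugcuguu
miR-98-5p (Mir98, chrX:151913229-151913250, plus strand): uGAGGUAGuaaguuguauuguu

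The reverse complement of that seed, CTACCTC, was searched on the sense strand of the longest annotated 3′ UTR of every gene in GENCODE M21 (GRCm38, the same coordinates as mm10). Of 20501 genes with a 3′ UTR, 1865 held it, which is 9.10%, and all 8 genes described here did. Lin28b, Trim71, Hmga2 and Igf2bp1 each held 4 matches, Lin28a held 2, and Hmga1, Igf2bp2 and Igf2bp3 held 1 each. Matches in number of 3 or more were found in 0.151% of all 3′ UTRs, and 4 genes had more than Hmga2, namely Nr6a1 with 8, Mcf2l and Nudt12 with 7 each, and Trim6 with 6. Since several of the genes are grouped with each other because they are known let-7 targets, the count describes them and is not independent evidence.

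The match nearest to the stop codon in each gene is given below with its flanks, read 5′ to 3′ on the gene's strand, with the match in capitals. For Hmga2, the gene with the most matches per kilobase of 3′ UTR among the 8 (1.33), the other 3 matches are added. A match followed by A, a base known to strengthen silencing, was present at all 4 places in Trim71, 3 of 4 in Igf2bp1 and both in Lin28a, but at only 1 of 4 in Lin28b and in Hmga2. These are letter matches in the annotation, and binding at them was not measured.
Lin28a (chr4:134005188-134005217, minus strand): tggagtgcacagcctgttgaaCTACCTCat
Lin28b (chr10:45381021-45381050, minus strand): cccttcacccgggcgggaagtCTACCTCat
Trim71 (chr9:114512471-114512500, minus strand): aagtacaacattgcctaagtcCTACCTCag
Hmga1 (chr17:27563271-27563300, plus strand): atcttctcctctgttcacaaaCTACCTCtg
Hmga2 site 1 (chr10:120364223-120364252, minus strand): gggggcgccgacattcaatttCTACCTCag
Hmga2 site 2 (chr10:120362986-120363015, minus strand): aataatccccactcctcaataCTACCTCtg
Hmga2 site 3 (chr10:120362548-120362577, minus strand): gacttcctgatttgcaaggaaCTACCTCca
Hmga2 site 4 (chr10:120361690-120361719, minus strand): ttgtacaatcaaaacacactaCTACCTCtt
Igf2bp1 (chr11:95961777-95961806, minus strand): ggcagtgctgtgcgaagtaaaCTACCTCaa
Igf2bp2 (chr16:22059472-22059501, minus strand): agaaaaacacacaaataaaagCTACCTCag
Igf2bp3 (chr6:49086786-49086815, minus strand): taaacgtgcatttttactcaaCTACCTCag

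The 3′ UTRs of these genes differ in length, and longer ones hold more matches by size alone. Among 3′ UTRs between 0.8 and 1.25 times as long as that of Hmga2 (3014 bases), 16.2% held at least 1 match and 0.125% held 4 or more. For Igf2bp1, whose 3′ UTR is the longest of the 8 at 6337 bases, the same shares were 34.3% and 0.336%. Around Igf2bp3 (2119 bases, 1 match) 13.4% of similar 3′ UTRs held a match, which is the background for its single match.

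**Figure D1:**
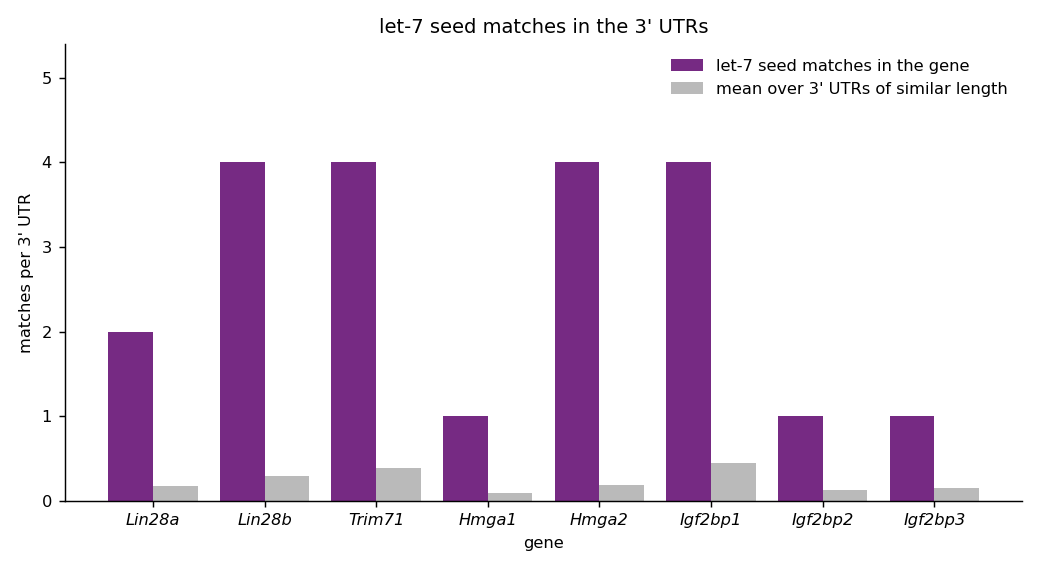
Number of let-7 seed matches in the longest 3′ UTR of each of the 8 genes (purple bars, y axis in matches per 3′ UTR) beside the mean number over all mouse 3′ UTRs of 0.8 to 1.25 times its length (grey bars). Lin28b, Trim71, Hmga2 and Igf2bp1 hold 4 each, against means of 0.299, 0.392, 0.190 and 0.442.

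The libraries held 6108252 to 11496615 estimated counts each, and the 8 genes took 0.126% to 0.277% of them. Naive and primed marker genes largely followed the labels. The summed level of 6 naive markers was 767 to 1441 TPM (a level divided by transcript length and scaled to the library's total) in mES-Oct4GFP+, 5C-Oct4GFP+ and 5C-Oct4GFP+ (naive) and 7.29 to 79.8 TPM in the other 4 libraries, and that of 6 primed markers was 1472 and 1357 TPM in the primed pair and 726 TPM in 5C-Oct4GFP+. The 8 fibroblast markers summed to 500 TPM in mES-Oct4GFP-, 262 in 5C-Oct4GFP-, 218 in R1 ESCs-primed and 77.0 in 5C-Oct4GFP+ (primed), against 10.5 to 15.7 in the other 3, and no marker of that list was at 0. The 4 primitive endoderm markers, none of them at 0 either, summed to 93.7 TPM in 5C-Oct4GFP+ (primed), 63.9 in mES-Oct4GFP- and 61.3 in R1 ESCs-primed, against 2.01 to 7.66 in the other 4. The 7 pluripotent markers summed to 2899 TPM in mES-Oct4GFP+ and 3752 in mES-Oct4GFP-. Of these, Pou5f1, whose reads may include the delivered factor, was at 1321 and 3640 TPM, and the other 6 were higher in mES-Oct4GFP+. Epithelial markers were mixed in the same libraries, with Krt8 at 3.82 and 748 TPM and Cdh1 at 295 and 124 TPM. Comparisons across these sets of libraries therefore also run along fibroblast, primitive endoderm or keratin RNA, whose part in the results was not tested.

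Differences below are of log2(TPM + 1), which understates the change of a low gene, and a gene was called past 2-fold where that difference was at least 1 either way and its TPM was at least 1 in either library. Ratios are of TPM, with exact 95% intervals for which RSEM's estimated counts were rounded. These intervals cover counting error only and say nothing of the spread between cultures.

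Lin28a, the LIN28 family member that acts mainly on let-7 precursors in the cytoplasm, was the more abundant of the pair in all 7 libraries. Its level was 24.2 TPM in the Oct4GFP+ and 75.9 TPM in the Oct4GFP- cells of mES medium, 108.8 and 62.3 TPM in those of 5C medium, 41.4 TPM after conversion to naive and 299 TPM to primed cells, and 321 TPM for R1 ESCs-primed. Both primed libraries thus lay far above the rest, 5C-Oct4GFP+ came next, and the pair with the highest naive markers, mES-Oct4GFP+ and 5C-Oct4GFP+ (naive), was lowest. No neighbours in this order had an interval that held a ratio of 1, though R1 ESCs-primed was only 1.07 times 5C-Oct4GFP+ (primed). In such bulk samples a lower level can mean fewer expressing cells or less RNA per cell, and these cannot be told apart.

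Lin28b, a paralog that can also hold let-7 primary transcripts in the nucleus, spanned the widest range of the 8 genes. Its level was 0.90 TPM in the Oct4GFP+ and 9.19 TPM in the Oct4GFP- cells of mES medium, 6.05 and 11.8 TPM in those of 5C medium, 0.75 TPM after conversion to naive and 34.0 TPM to primed cells, and 38.0 TPM for R1 ESCs-primed. The lowest values rest on 16 and 19 counts, and mES-Oct4GFP+ and 5C-Oct4GFP+ (naive) did not differ beyond counting error (ratio 1.20, interval 0.577 to 2.46). Its SD of log2(TPM + 1) over the 7 libraries, 1.80, was above that of 92.6% of the 11804 genes reaching 10 TPM somewhere. The share of LIN28 messages that was Lin28b ranged from 1.78% of the summed TPM in 5C-Oct4GFP+ (naive) to 15.9% in 5C-Oct4GFP-.

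Trim71, also known as Lin41 and a let-7 target from worms to mammals, was lowest in the sorted Oct4GFP- pair, with the primed pair next. Its level was 41.2 TPM in the Oct4GFP+ and 19.5 TPM in the Oct4GFP- cells of mES medium, 48.1 and 14.6 TPM in those of 5C medium, 41.9 TPM after conversion to naive and 33.1 TPM to primed cells, and 31.9 TPM for R1 ESCs-primed. Both Oct4GFP- libraries were below all 5 others. Within the other 5 the highest and lowest differed by less than 2-fold, and mES-Oct4GFP+ against 5C-Oct4GFP+ (naive), and 5C-Oct4GFP+ (primed) against R1 ESCs-primed, did not differ beyond counting error.

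Hmga1, which encodes the HMGA proteins common to dividing and undifferentiated cells, was the most abundant of the 8 in every library. Its level was 489 TPM in the Oct4GFP+ and 684 TPM in the Oct4GFP- cells of mES medium, 1224 and 927 TPM in those of 5C medium, 652 TPM after conversion to naive and 1394 TPM to primed cells, and 1306 TPM for R1 ESCs-primed. The order resembled that of Lin28a at the top, with the primed pair and 5C-Oct4GFP+ highest and mES-Oct4GFP+ lowest. These levels depend on how reads were divided between Hmga1 and Hmga1b, a copy on chromosome 11 (chr11:120762794-120764419, plus strand, GRCm38) whose transcript was identical to that of Hmga1 at 97.7% of 1596 aligned positions, the let-7 match and its flanks included. Hmga1b was given 249 to 889 TPM, which was 21.2% of the summed level in 5C-Oct4GFP- and 39.7% in 5C-Oct4GFP+ (naive).

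**Figure D2:**
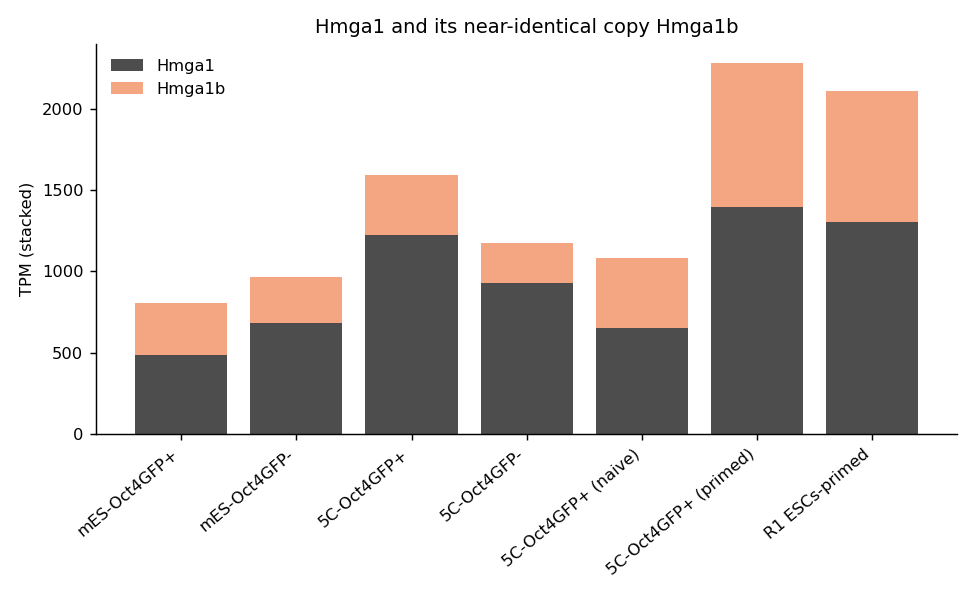
Hmga1 (grey) and Hmga1b (orange) TPM stacked for each of the 7 libraries, 1 library per bar. The summed level is lowest at 809 TPM for mES-Oct4GFP+ and highest at 2283 TPM for 5C-Oct4GFP+ (primed), and the split between the copies is not the same in all libraries.

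Hmga2, whose loss of let-7 sites is known from tumours with a truncated gene, had an order of its own. Its level was 48.9 TPM in the Oct4GFP+ and 87.9 TPM in the Oct4GFP- cells of mES medium, 34.8 and 51.8 TPM in those of 5C medium, 69.9 TPM after conversion to naive and 99.5 TPM to primed cells, and 149.7 TPM for R1 ESCs-primed. It was lowest in 5C-Oct4GFP+, the library in which Hmga1 was among the highest, so that Hmga1 exceeded Hmga2 by 35.2 times there and by 7.78 to 17.9 times in the other 6. In both media it was higher in the Oct4GFP- library than in its Oct4GFP+ partner, by less than 2-fold.

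Igf2bp1, the IGF2BP member best known for binding the Actb and Myc messages, was the most variable of its family. Its level was 131 TPM in the Oct4GFP+ and 31.9 TPM in the Oct4GFP- cells of mES medium, 77.0 and 20.9 TPM in those of 5C medium, 141 TPM after conversion to naive and 64.7 TPM to primed cells, and 73.0 TPM for R1 ESCs-primed. It was highest in the naive-like pair and lowest in the Oct4GFP- pair. In TPM, 5C-Oct4GFP+ against R1 ESCs-primed did not differ beyond counting error (ratio 1.05, interval 0.990 to 1.12). The authors' tables give it a mean transcript length of 4471 bases in 5C-Oct4GFP+ and 7985 bases in 5C-Oct4GFP+ (primed). Its listed transcripts are, in GENCODE M21, a coding one of 8378 bases and 4 noncoding ones of 576 to 1108 bases. How reads were shared out among them could not be seen from gene-level values. Without division by length, at 185 and 280 CPM (estimated counts scaled to the library's total), the primed library was the higher of the pair, whereas in TPM it was the lower (ratio 0.841). R1 ESCs-primed, with a mean length of 7771 bases, was likewise above 5C-Oct4GFP+ on that scale, at 301 CPM. The lengths of Lin28b, Trim71 and Igf2bp3 were the same in all 7 libraries.

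**Figure D3:**
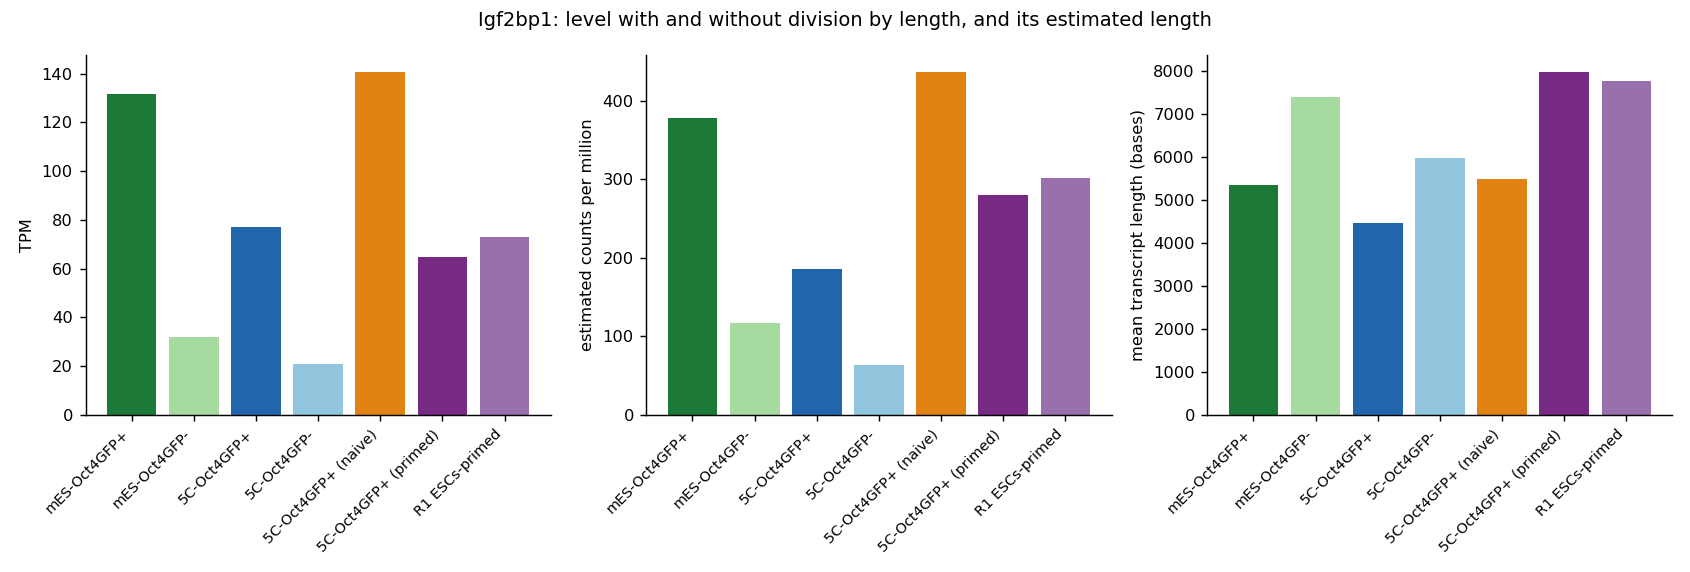
Igf2bp1 in the 7 libraries as TPM (left), as CPM (middle) and as the mean transcript length in bases that the tables assign to it (right), 1 library per bar. The length ranges from 4471 to 7985 bases, and the order of 5C-Oct4GFP+ and 5C-Oct4GFP+ (primed) turns round between the first panels.

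Igf2bp2, the family member that stays expressed in some adult tissues, changed least of the 8. Its level was 114 TPM in the Oct4GFP+ and 136 TPM in the Oct4GFP- cells of mES medium, 96.8 and 81.0 TPM in those of 5C medium, 97.7 TPM after conversion to naive and 113 TPM to primed cells, and 99.8 TPM for R1 ESCs-primed. Only 10.8% of the 11804 genes had a smaller SD of log2(TPM + 1). Igf2bp3, a common tumour marker, was 54.8 TPM in the Oct4GFP+ and 47.0 TPM in the Oct4GFP- cells of mES medium, 50.7 and 45.5 TPM in those of 5C medium, 63.5 TPM after conversion to naive and 68.9 TPM to primed cells, and 80.6 TPM for R1 ESCs-primed. Its highest level was 1.77 times its lowest, and the 4 libraries sorted on day 15 lay next to each other at the bottom, each within counting error of its neighbour. As a result the leading IGF2BP message changed with the library: Igf2bp1 held 46.6% of the family's summed TPM in 5C-Oct4GFP+ (naive) and 14.2% in 5C-Oct4GFP-, where Igf2bp2 held 55.0%.

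**Figure D4:**
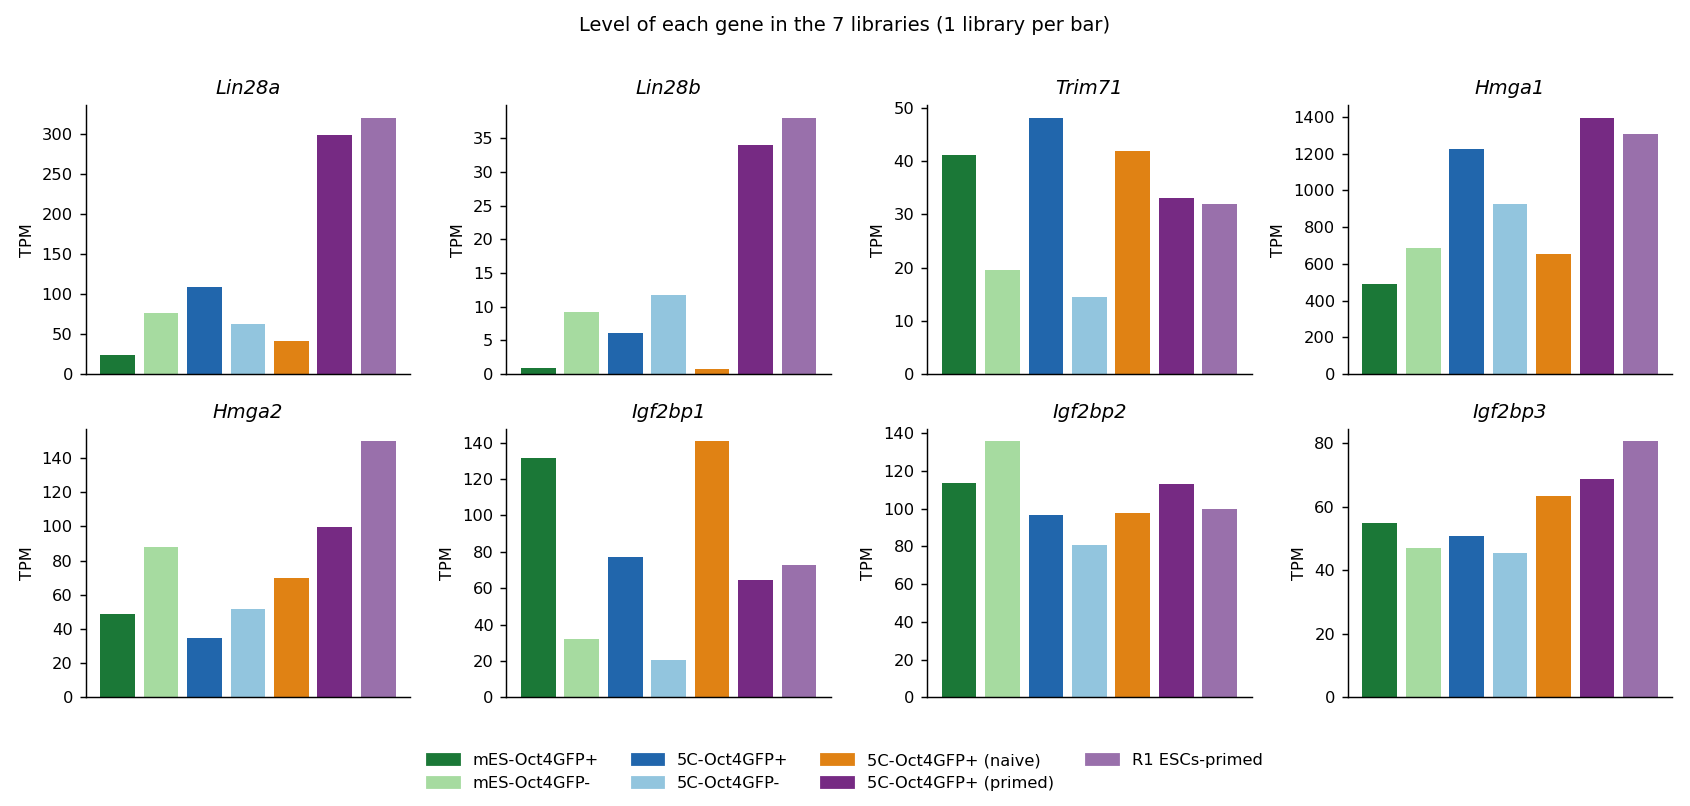
TPM of each of the 8 genes in the 7 libraries, 1 panel per gene and 1 library per bar, each y axis starting at 0 with its own scale. Lin28a and Lin28b stand highest in the primed pair, Trim71 and Igf2bp1 lowest in the Oct4GFP- pair, and Igf2bp2 and Igf2bp3 span 1.67-fold and 1.77-fold.

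The medium was compared first in the cells that had switched on the Oct4 reporter. Of the 8 genes, 3 were past 2-fold higher with 5C than with mES medium and none was lower, where 27.2% of 15196 genes were called either way and 13.7% were called higher. Lin28a was 4.49 times as high (interval 3.96 to 5.11), Lin28b 6.72 times (4.03 to 12.0) and Hmga1 2.51 times (2.39 to 2.62). Summed with Hmga1b, the Hmga1 difference was 0.98 on the log2 scale against 1.32 alone, just under the call. Igf2bp1 (ratio 0.585) and Hmga2 (0.711) lay lower with 5C medium without reaching the call, and Igf2bp1 passed it without division by length (difference -1.03).

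In the cells without the reporter signal the medium comparison called none of the 8, where 19.8% of 15859 genes were called, 9.68% higher and 10.1% lower in 5C medium. The differences ran from -0.75 for Hmga2 to 0.44 for Hmga1. Lin28a lay lower with 5C medium here (ratio 0.820, interval 0.751 to 0.895), the opposite side of 1 from the reporter-positive cells, and Trim71 also changed sides, from 1.17 (1.09 to 1.25) to 0.746 (0.669 to 0.831). The difference between these effects was not tested.

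The reporter gate was compared within each medium. In mES medium 4 of the 8 were past 2-fold, where 46.7% of 16294 genes were called, 17.9% higher and 28.8% lower in the reporter-positive cells. Igf2bp1 was 4.12 times (3.82 to 4.44) and Trim71 2.11 times (1.93 to 2.31) as high in mES-Oct4GFP+ as in mES-Oct4GFP-, while Lin28a was at a ratio of 0.319 (0.279 to 0.364) and Lin28b at 0.0979 (0.0550 to 0.163). In 5C medium 2 of the 8 were called, both higher in the reporter-positive cells, where 31.0% of 15675 genes were called, 8.45% higher and 22.6% lower. These were again Igf2bp1, at a ratio of 3.69 (3.35 to 4.07), and Trim71, at 3.30 (3.02 to 3.62). Lin28a was 1.75 times as high in 5C-Oct4GFP+ as in 5C-Oct4GFP-, the reverse of its order in mES medium. Both Oct4GFP- libraries carried the most fibroblast RNA, and the part of that RNA in these values was not tested.

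The conversion of 5C-Oct4GFP+ cells was followed next. These comparisons share the 5C-Oct4GFP+ library, so their values stand side by side and are not independent. The converted libraries are at 20 passages and 5C-Oct4GFP+ is at passage 0, so medium and passages cannot be told apart. In naive medium 2 of the 8 were called, Lin28a lower (ratio 0.380, 0.348 to 0.415) and Lin28b lower (0.124, 0.0730 to 0.199), where 27.5% of 14863 genes were called and 17.5% were called lower, and Hmga2 was 2.01 times as high (1.83 to 2.21) with a difference of 0.99 on the log2(TPM + 1) scale that fell just short. In primed medium 3 were called, all higher, where 29.7% of 15067 genes were called, 13.7% higher and 16.1% lower. Lin28b was 5.62 times as high (4.81 to 6.60), Hmga2 2.86 times (2.63 to 3.12) and Lin28a 2.75 times (2.62 to 2.89). Hmga2 was thus higher after conversion in either medium. In the naive comparison Hmga2 passed the call as FPKM (1.04), as CPM (1.07), with a pseudocount of 0.1 (1.006) and after median-ratio rescaling (1.11), and Igf2bp1 passed it as CPM (1.23), which made 4 genes in all on that scale.

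Set against each other, the converted cells differed in 4 of the 8 genes, where 38.9% of 15249 genes were called, 22.2% higher and 16.7% lower in the primed cells. In 5C-Oct4GFP+ (primed), Lin28b was 45.3 times (28.9 to 75.6), Lin28a 7.23 times (6.68 to 7.84) and Hmga1 2.14 times (2.06 to 2.21) the level in 5C-Oct4GFP+ (naive), and Igf2bp1 was at 0.460 (0.438 to 0.482). The Igf2bp1 call was lost without division by length (difference -0.64 against -1.11), and that of Hmga1 was lost after median-ratio rescaling (0.91 against 1.09). The 45.3-fold value for Lin28b has 19 counts on its lower side, and its difference on the log2(TPM + 1) scale was 4.32.

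The converted cells were also set beside libraries of a like state by their naive and primed markers. In the naive-like pair, 5C-Oct4GFP+ (naive) is at 20 passages and mES-Oct4GFP+ at 0. Passages and medium cannot be told apart there. None of the 8 was called between 5C-Oct4GFP+ (primed) and R1 ESCs-primed, where 7.39% of 14600 genes were called, 2.30% higher and 5.09% lower in the former, and the widest differences were Hmga2 at a ratio of 0.664 (0.626 to 0.705) and Igf2bp3 at 0.855 (0.796 to 0.918). The interval for Trim71 alone held 1 (0.963 to 1.12). Between 5C-Oct4GFP+ (naive) and mES-Oct4GFP+ 7 of the 8 could be compared, since Lin28b was under 1 TPM in both, and none was called, where 8.77% of 14477 genes were, 2.49% higher and 6.27% lower in the converted cells. Lin28a had the widest difference there, 1.71 times as high in the converted cells (1.48 to 1.97).

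**Figure D5:**
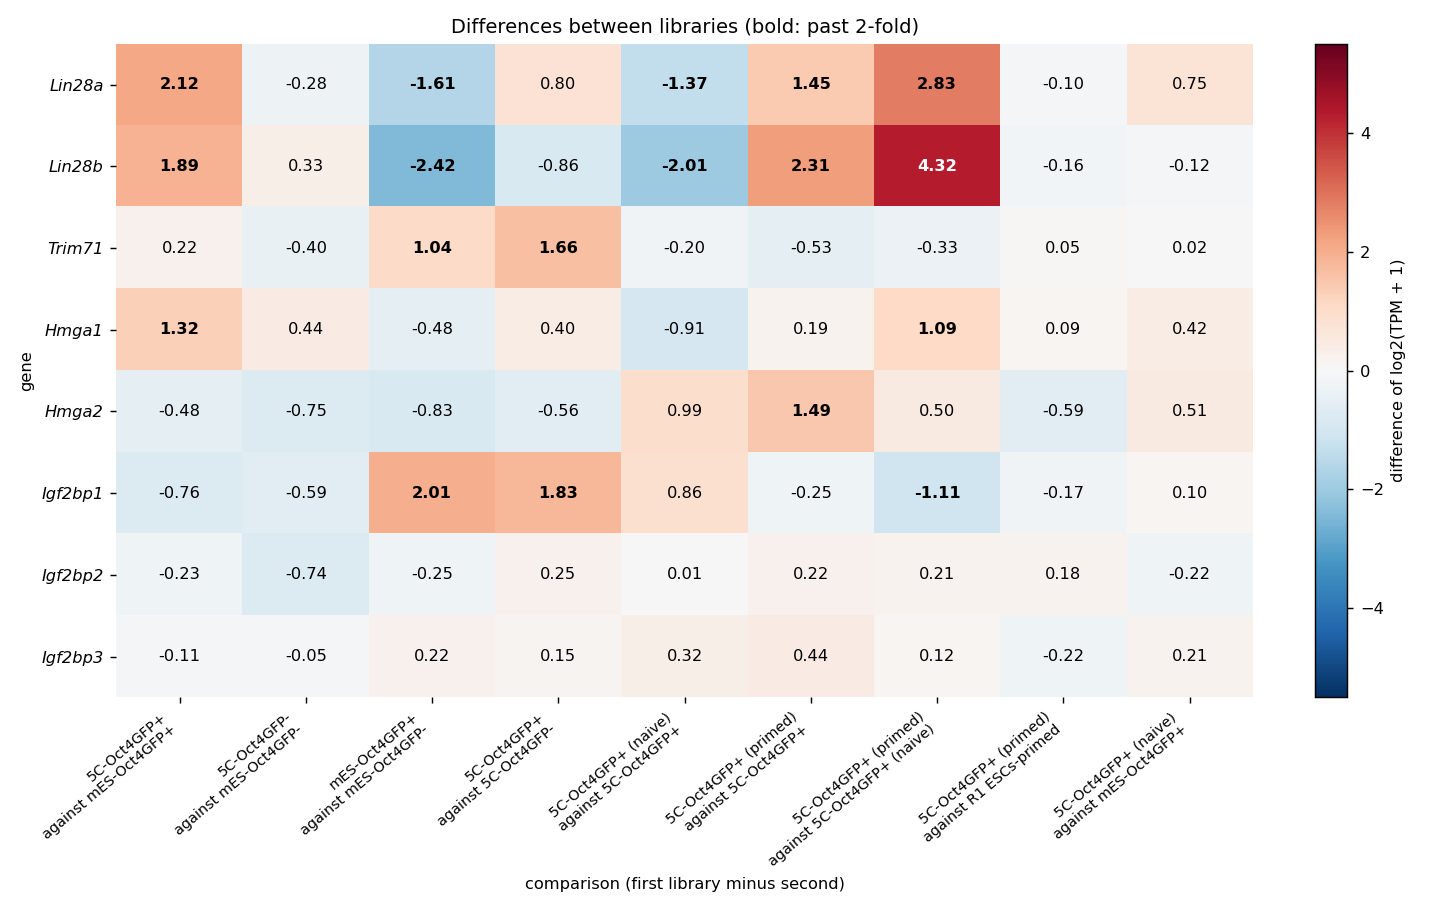
Difference of log2(TPM + 1), first library minus second, for the 8 genes (rows) in the 9 comparisons (columns), with the value written in each cell, red for higher and blue for lower, and bold past 2-fold. The Lin28a and Lin28b rows reach 2.83 and 4.32 in primed against naive cells, and the Igf2bp2 and Igf2bp3 rows hold no bold value.

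Over the 7 libraries, Lin28a moved with Lin28b (Pearson r of log2(TPM + 1) 0.92) and with Hmga1 (0.92), and Trim71 moved with Igf2bp1 (0.92). For Lin28a and Igf2bp1 the value was -0.20. These values describe 7 points that include related cultures, and they carry no test. The points span the contrast between Oct4GFP+ and Oct4GFP- cells and that between primed and naive cells.

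For each gene, the 3 genes with the most similar profile were taken from 11751 genes that had a symbol and reached 10 TPM somewhere, by Pearson r over the 7 libraries. Those of Lin28a were Vrtn (r = 0.99, 0.20 to 96.0 TPM), Rab1b and Fsd1. Those of Lin28b were Fgf5, the FGF ligand that marks the primed epiblast (0.99, 0.09 to 175 TPM), Shisa6 and Unc45b. Trim71 was closest to Taf8 (0.99), Zfp7 and Camsap3, and Igf2bp1 to Tmem8 (0.99), Trim6 and Gpatch3. Trim6 is also the gene with 6 let-7 matches named above. Hmga1 was closest to Hgh1 (0.99), Naf1 and Wdr55, Hmga2 to Txndc17 (0.97), Nploc4 and Polr1d, Igf2bp2 to Sbds (0.94), Nectin2 and Rras2, and Igf2bp3 to Fbxl18 (0.99), Nsun2 and Mrpl44. With 7 points and this many genes searched, these values rank the profiles and were not tested.

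The enzymes that make, mark and degrade let-7 precursors were measured as a list of 15 miRNA-processing genes. Between 5C-Oct4GFP+ (primed) and 5C-Oct4GFP+ (naive), 1 of 15 was past 2-fold higher and none lower, where 22.2% of all genes compared were higher and 16.7% lower. This was Prkra, a Dicer partner, at 40.4 against 7.83 TPM (difference 2.23), and the list median was 0.24 against 0.14 over all genes compared. In 5C-Oct4GFP+ against mES-Oct4GFP+, 2 of 14 compared were higher and 1 lower (13.7% and 13.5% of all genes), with Prkra at the upper end (21.9 against 8.78 TPM, 1.23) and Tut4, the uridyltransferase that LIN28A recruits, at the lower end (28.2 against 57.5 TPM, -1.002). In the same library pair Dis3l2, the nuclease that degrades uridylated pre-let-7, was at 31.5 against 13.9 TPM. None of 15 was called between 5C-Oct4GFP- and mES-Oct4GFP- (9.68% of all genes were higher and 10.1% lower), where Hnrnpa1, a let-7 processing inhibitor, had the widest rise (0.68) and Ago4 the widest fall (-0.80).

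A list of 17 other let-7 targets gave 8 higher and none lower in 5C-Oct4GFP+ (primed) against 5C-Oct4GFP+ (naive), where 22.2% of all genes were higher and 16.7% lower, with a median difference of 0.85 against 0.14 over all genes compared. Ccnd2, a G1 cyclin, had the largest difference there, 20.4 against 0.87 TPM (3.51), and Cdc25a the lowest (-0.54). In 5C-Oct4GFP+ against mES-Oct4GFP+, 5 of 17 were higher and 1 lower, where 13.7% and 13.5% of all genes were (median 0.53 against -0.06), from Ccnd2 at 2.40 to Nr6a1, a germ cell nuclear receptor with the most let-7 matches of any gene, at -1.76 (11.2 against 40.5 TPM). In 5C-Oct4GFP- against mES-Oct4GFP-, 1 was higher and 3 lower, where 9.68% and 10.1% of all genes were (median -0.14 against 0.03), from Cdc25a at 1.00 to Ccnd2 at -1.30. Myc reads may include the delivered factor, and Ccnd2 was also highest in the libraries with the most fibroblast RNA, at 326 TPM in mES-Oct4GFP- and 132 in 5C-Oct4GFP-. Of the 17 genes, 10 held a seed match in the longest 3′ UTR and 7 did not, Ccnd2 and Myc among them.

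Of 9 messages described as TRIM71 targets, 4 of 8 compared were higher and 2 lower in 5C-Oct4GFP+ (primed) than in 5C-Oct4GFP+ (naive) (22.2% and 16.7% of all genes, median 0.95 against 0.14), from Egr1, an immediate early gene, at 83.8 against 0.50 TPM to Cdkn1a, the p21 cell cycle inhibitor, at 95.9 against 242 TPM. Trim71 itself differed by -0.33 there, by 0.22 in 5C-Oct4GFP+ against mES-Oct4GFP+ and by -0.40 in 5C-Oct4GFP- against mES-Oct4GFP-. In 5C-Oct4GFP+ against mES-Oct4GFP+, 5 of 9 were higher and 2 lower (13.7% and 13.5% of all genes, median 1.18 against -0.06), with Egr1 at 7.59 and Cdkn1a at -1.13 at the ends. In the Oct4GFP- pair 3 were higher and 2 lower (9.68% and 10.1% of all genes, median 0.18 against 0.03), from Inhbb, an activin subunit, at 2.78 to Cdkn1a at -1.69.

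Of 8 IGF2BP-bound or oncofetal genes, 5 of 7 compared were higher and none lower in 5C-Oct4GFP+ (primed) than in 5C-Oct4GFP+ (naive) (22.2% and 16.7% of all genes, median 3.29 against 0.14). Dlk1, an imprinted growth regulator, led with 34.5 against 0.20 TPM, and Sall4, a pluripotency factor, was at the other end (-0.23). In 5C-Oct4GFP- against mES-Oct4GFP- 6 of 8 were lower and none higher (10.1% and 9.68% of all genes, median -2.37 against 0.03), from Actb at 0.21 to Afp, the fetal liver protein, listed at 0 against 19.3 TPM. In 5C-Oct4GFP+ against mES-Oct4GFP+, 3 of 7 were higher and none lower (13.7% and 13.5% of all genes, median 0.43 against -0.06), from H19 at 2.58 to Sall4 at -0.50. The primitive endoderm markers moved with this list in some of these comparisons and not in all. In primed against naive cells 3 of 3 compared were higher (median 4.403), among them Sox17 at 60.4 against 0.94 TPM, and in 5C-Oct4GFP- against mES-Oct4GFP- 4 of 4 were lower (median -2.16). In 5C-Oct4GFP+ against mES-Oct4GFP+, 2 of them were compared and none was called (median -0.80). The fibroblast markers had medians of 2.32 in primed against naive cells, -1.11 in the Oct4GFP- pair and -0.57 in the Oct4GFP+ pair. The part of either marker set in the list's counts was not tested. Igf2, the message after which the family is named, was at 1.35 TPM in the Oct4GFP+ and 972 TPM in the Oct4GFP- cells of mES medium, 5.94 and 95.03 TPM in those of 5C medium, 1.40 TPM after conversion to naive and 64.4 TPM to primed cells, and 129 TPM for R1 ESCs-primed. Its 4 highest libraries were the 4 with the highest summed fibroblast markers.

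Of the 3 genes listed for HMGA2, Cdkn2a and Cdkn2b encode the cell cycle inhibitors of the Ink4a-Arf and Ink4b loci and Junb an AP-1 subunit. In 5C-Oct4GFP+ (primed) against 5C-Oct4GFP+ (naive) 2 were higher and 1 lower, from Junb at 1.37 to Cdkn2a at -1.55, where 22.2% and 16.7% of all genes were (median 1.17 against 0.14). In 5C-Oct4GFP+ against mES-Oct4GFP+ only Junb was called (3.38, list median 0.17 against -0.06), where 13.7% of all genes were higher and 13.5% lower. In 5C-Oct4GFP- against mES-Oct4GFP- only Cdkn2a was called (-1.69, list median -0.32 against 0.03), where 9.68% of all genes were higher and 10.1% lower. Hmga2 itself differed by 0.50, -0.48 and -0.75 in the same comparisons.

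Of the 8 genes, 7 had a promoter entry in RefSeq GRCm38.p6, covering 300 bases around the annotated start. They were searched on both strands for the octamer ATGCAAAT, a motif of the delivered factor Oct4, and for the E-box CACGTG, a motif of the delivered factor c-Myc. Windows around the matches are shown for Hmga1, the most abundant gene of the 8, whose octamer is read on the opposite strand, and for Igf2bp3, which held a pair of E-boxes, with the match in capitals.
Hmga1 octamer (chr17:27556539-27556568, plus strand): tccccgggctcATTTGCATggccccgcccc
Igf2bp3 E-box, upstream (chr6:49214959-49214988, minus strand): ctgggattcctCACGTGagacgttgatttg
Igf2bp3 E-box, downstream (chr6:49214931-49214960, minus strand): tgtagtttgaaCACGTGgctcattcaaaaa
The octamer was found in 1.74% and the E-box in 7.15% of 32851 mouse promoters. Lin28b also held an E-box, before a RefSeq start that lies inside the GENCODE gene. A letter match in these windows is a description, and no binding was measured.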

How the data were processed

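RNA was extracted with Trizol and made into libraries with the Illumina TruSeq RNA kit, per the labels. The submitters' processing notes name Bowtie, RSEM and the mm10 build, whose versions are not given in the sources used here. The deposited tables, 1 per library, hold for each gene the expected count (an RSEM estimate that need not be whole), the TPM and the FPKM computed by the authors, and a deposited transcript length and effective length. Expected counts shared among similar transcripts are uncertain, which bears on Hmga1 and Igf2bp1.

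Levels are TPM as deposited. Differences are of log2(TPM + 1), called at 2-fold where at least 1 library of the pair reached 1 TPM, in 9 comparisons. Ratio intervals are exact Clopper-Pearson intervals (95%) on expected counts rounded to whole numbers, scaled by the libraries' TPM per count, and cover counting error only. No test was run, since each group has 1 library. The 8 genes and the pathway and marker lists were chosen with earlier results of these data known. All 8 genes are named in all 7 libraries, with the 3 most similar genes by Pearson r for each, and for each list the genes with the largest difference either way in 3 comparisons (Oct4GFP+ and Oct4GFP- cells between media, and primed against naive cells). Dis3l2, Igf2, Sox17 and the genes with the most let-7 matches were named after their values were seen. Of 29267 identifiers, 28756 had a symbol. Of 84205 transcript identifiers, 82224 were in GENCODE M21, and for single-transcript genes 73.4% of lengths equalled it within 1 base, and the annotation release behind the tables is not given in the sources used here. Alternatives were FPKM, CPM (counts scaled to the library total, with no length), a pseudocount of 0.1, median-ratio rescaling, a minimum of 5 TPM or none and, chosen after seeing the data, Hmga1 and Hmga1b summed. The calculations ran in Python 3.11.15 with pandas 2.3.3, numpy 2.4.6 and scipy 1.17.1 and were checked on simulated counts.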

Additional observations from a re-analysis of the deposited data

Results flagged for a closer look

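The effect of the medium on Lin28a ran in opposite directions in the sorted fractions. The ratio of 5C to mES medium was 4.49 in Oct4GFP+ cells and 0.820 in Oct4GFP- cells, with counting intervals on opposite sides of 1. The same pattern, smaller in size, was seen for Trim71, at 1.17 in Oct4GFP+ cells and 0.746 in Oct4GFP- cells. With 1 library per group the difference between fractions was not tested. The summed fibroblast markers were 10.5 and 14.1 TPM in the Oct4GFP+ libraries and 262 and 500 TPM in the Oct4GFP- libraries of 5C and mES medium, and their part in these ratios was not tested.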

How the results depend on the processing

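The number of the 8 genes past 2-fold stayed within 1.5 times its value in all 9 comparisons under FPKM, a pseudocount of 0.1, median-ratio rescaling, a minimum of 5 TPM, no minimum, and Hmga1 summed with Hmga1b. Without division by length (CPM), the count for 5C-Oct4GFP+ (naive) against 5C-Oct4GFP+ went from 2 to 4, with Hmga2 (1.07) and Igf2bp1 (1.23) added. No called difference changed sign. Below the call, the sign changed for Igf2bp1 in primed cells against 5C-Oct4GFP+ (-0.25 to 0.60) and Igf2bp2 in primed against naive cells (0.21 to -0.02) as CPM, and for Igf2bp3 in primed against naive cells (0.12 to -0.07) after rescaling. Calls were lost for Hmga1 in 5C-Oct4GFP+ against mES-Oct4GFP+ with the copies summed (0.98), for Hmga1 in primed against naive cells after rescaling (0.91) and for Igf2bp1 there as CPM (-0.64), and calls were gained for Lin28a in 5C-Oct4GFP+ against 5C-Oct4GFP- after rescaling (1.02), for Igf2bp1 in 5C-Oct4GFP+ against mES-Oct4GFP+ as CPM (-1.03) and for Hmga2 in naive cells against 5C-Oct4GFP+ also as FPKM (1.04), with a pseudocount of 0.1 (1.006) and after rescaling (1.11), which made 3 genes instead of 2 there. Rescaling moved the median of all genes by over 0.1 in 5 of the 9 comparisons, at most by 0.20 in 5C-Oct4GFP+ against 5C-Oct4GFP-. No paired analysis was possible because each group has 1 library, and for the same reason no replicate could be left out. Depth limits Lin28b most, with 16 counts in mES-Oct4GFP+ and 19 in 5C-Oct4GFP+ (naive).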

Other observations

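Besides Lin28b, Trim71, Hmga2 and Igf2bp1, 23 genes that could be compared between primed and naive cells held 3 or more let-7 seed matches. Of these, 43.5% were past 2-fold higher in 5C-Oct4GFP+ (primed) and 4.35% lower, with a median difference of log2(TPM + 1) of 0.97. Among 12152 genes with no match, 22.7% were higher and 15.0% lower, with a median of 0.17. The classes between lay close to the genes with no match. Of 1245 genes with 1 match, 23.9% were higher and 12.8% lower (median 0.22). Of 144 genes with 2 matches, 22.2% were higher and 11.1% lower (median 0.26). For such genes with 3 or more matches and for genes with none, the medians were 0.40 and 0.07 in 5C-Oct4GFP+ (primed) against 5C-Oct4GFP+. In 5C-Oct4GFP+ against mES-Oct4GFP+ they were 0.22 and -0.04, with 18.2% and 13.9% higher and 13.6% and 11.7% lower. In mES-Oct4GFP+ against mES-Oct4GFP- they were -0.19 and -0.21, and in 5C-Oct4GFP+ against 5C-Oct4GFP- they were -0.33 and -0.27. Between 5C-Oct4GFP- and mES-Oct4GFP- the median for 3 or more matches was the lower of the pair, at -0.20 against 0.04. The classes were set after values were seen, let-7 was not measured, and no test was run. They also differ in 3′ UTR length. In primed against naive cells the medians were 4466 bases for 3 or more matches, 3504 for 2, 2120 for 1 and 1018 for none.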
